A study of Bos taurus with 9 samples.

Results

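The genes described here are 10 components of Wnt signalling, measured in cultures that the labels call bovine endometrial epithelial cells (BEEC). Such cells line the uterus. The genes are the secreted frizzled-related proteins SFRP1, SFRP2, SFRP4 and SFRP5 and the Dickkopf proteins DKK1 and DKK3. The others are the R-spondins RSPO1 and RSPO3, the feedback gene AXIN2 and the ligand WNT5A. They were chosen by name, and all 10 were found among the 24596 genes of the deposited table. BEEC, scraped off the luminal face of 3 uteri in the early luteal stage, were thawed, grown as monolayers and joined on day 4 after fertilisation by groups of 5 pre-conditioned morulae, which stayed until day 8. Each library is the pooled RNA of 3 wells. The embryo regimes were HIGHGLUC (libraries V6, V10 and V14), LOWAA (V8, V12 and V15) and control (V5, V9 and V13), 3 libraries each, so that embryo contact, passage and medium were common to all groups and cells without embryos were not part of the comparison. The labels give no concentrations, and they tie no library to a uterus or a separate culture, so that p-values measure only the spread between these libraries, which may be technical.

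Secreted Wnt proteins bind Frizzled receptors together with LRP5 or LRP6, which spares beta-catenin from destruction and lets it switch on target genes in the nucleus. SFRP proteins bind Wnt ligands outside the cell, DKK1 blocks the LRP co-receptors, and R-spondins act through LGR receptors to keep Frizzled at the surface by restraining the ubiquitin ligases ZNRF3 and RNF43. In the uterus these factors take part in the exchange between stroma and epithelium, in gland formation and in implantation, as known mainly from mice. The data bear on whether these transcripts differ in endometrial cells according to how the embryos beside them had been cultured.

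Exon reads per library ranged from 2887097 (V5) to 13969325 (V9), and the second lowest total was 6927123 (V14). In the order of their numbers the libraries make 3 runs, each holding every regime once: run 1 is V5, V6 and V8, run 2 is V9, V10 and V12, and run 3 is V13, V14 and V15. A second number in the headers follows the same order, and the labels do not say what either number marks. The cultures held keratin and matrix transcripts together: the summed level of 9 epithelial markers was 7763 to 9077 CPM (counts of exon reads scaled by library size and TMM factor) and that of 8 stromal fibroblast markers was 10774 to 13148 CPM. The epithelial marker EPCAM had 13 reads in all, and the epithelial markers CLDN7 and FOXA2, the leukocyte markers PTPRC and CD3E, the endothelial markers CDH5 and KDR and the embryo marker SOX2 had 0 reads. In such bulk samples, fewer cells of a type and less RNA per cell cannot be told apart. Nor can it be told which cell type a transcript came from, so the levels below are those of the mixed cultures.

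Of the 10 genes, 6 were expressed at a level that could be tested and 4 were close to absent. Per length of exon, SFRP2 stood far above the others, with 981 ± 167 RPKM (the deposited measure that divides reads by exon length and library size; SD over the 9 libraries). That placed it at rank 78 of all genes in the table by mean RPKM. DKK3, which despite its name does not act as a typical LRP blocker, followed with 204 ± 47.9 RPKM at rank 358. RSPO1 had 19.8 ± 7.20 RPKM, AXIN2 17.7 ± 2.86, SFRP5 14.8 ± 2.75 and WNT5A 13.7 ± 2.77. SFRP2 was above DKK3, and DKK3 above RSPO1, in 9 of 9 libraries with no overlap. Among the next neighbours the order was not fixed: RSPO1 was above AXIN2 in 5 of 9 libraries, AXIN2 above SFRP5 in 8 of 9, and SFRP5 above WNT5A in 4 of 9, with overlapping ranges.

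**Figure D1:**
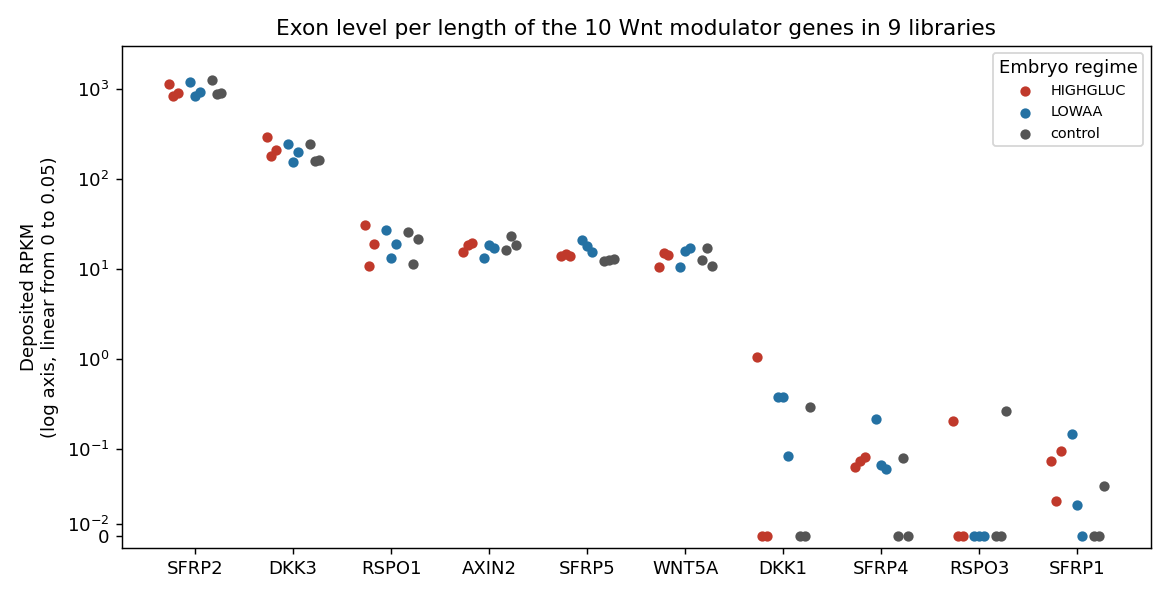
Deposited RPKM of the 10 genes in each of the 9 libraries, on a log axis that is linear from 0 to 0.05; each point is a library, coloured by embryo regime. SFRP2 and DKK3 lie above the rest, RSPO1, AXIN2, SFRP5 and WNT5A overlap, and DKK1, SFRP4, RSPO3 and SFRP1 lie near 0 in all regimes.

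The SFRP family was represented almost wholly by a single gene. SFRP2 made up 97.9% to 99.0% of the summed RPKM of SFRP1, SFRP2, SFRP4 and SFRP5 in each library. SFRP1 had 17 exon reads in all libraries together: 3, 1 and 3 in HIGHGLUC V6, V10 and V14, 7, 1 and 0 in LOWAA V8, V12 and V15, and 0, 0 and 2 in control V5, V9 and V13. SFRP4 had 11 reads, namely 1, 1 and 1 with HIGHGLUC, 4, 1 and 1 with LOWAA, and 0, 2 and 0 with control embryos. Their exons are long enough to collect reads, with 4226 bases for SFRP1 and 1645 bases for SFRP4, against 1998 bases for SFRP2. Levels summed over all libraries were 0.217 CPM for SFRP1 (exact 95% Poisson interval 0.127 to 0.348) and 0.141 CPM for SFRP4 (0.0702 to 0.252). These intervals cover counting error only.

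DKK1 and RSPO3, the other scarce genes, appeared in few libraries. DKK1, the LRP antagonist, had 12, 0 and 0 reads in HIGHGLUC V6, V10 and V14, 5, 4 and 1 reads in LOWAA V8, V12 and V15, and 0, 0 and 4 reads in control V5, V9 and V13. All of its HIGHGLUC reads thus came from V6, and 11 of its 26 reads in all spanned an exon-exon junction. RSPO3 had 2, 0 and 0 reads with HIGHGLUC, 0 in each LOWAA library and 0, 0 and 3 with control embryos. With the limit for a count of 0 set at 3 counts, a rule apart from the Poisson intervals, the LOWAA group allows up to 0.109 CPM over its 3 libraries together, and a single library allows from 0.215 CPM in V9 to 1.04 CPM in V5. The DKK1 reads of a regime together made 0.511 CPM with HIGHGLUC (exact 95% Poisson interval 0.264 to 0.893), 0.363 CPM with LOWAA (0.174 to 0.668) and 0.147 CPM with control embryos (0.0401 to 0.377), and these intervals overlap. For SFRP1 the values were 0.298 CPM (0.120 to 0.614), 0.291 CPM (0.125 to 0.573) and 0.0736 CPM (0.00891 to 0.266), which overlap as well. The filter on low counts removed these 4 genes, so they were not tested between regimes, and overlap of intervals is not a test. In the authors' deposited comparison of HIGHGLUC with control, SFRP1 had a weighted proportions fold change of 4.65 (Baggerley's test, unadjusted p = 0.0499). None of the 4 genes passed in the authors' comparisons after FDR correction.

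The 6 tested genes fall on separate chromosomes of the build named in the labels, UMD3.1. SFRP2 lies on chromosome 17 (3829563 to 3838136, 3 exons), SFRP5 on 26 (18782563 to 18787376, 3 exons) and DKK3 on 15 (41241521 to 41291990, 8 exons). RSPO1 lies on chromosome 3 (108854244 to 108874912, 6 exons), AXIN2 on 19 (62834849 to 62860774, 10 exons) and WNT5A on 22 (46096244 to 46112683, 5 exons). No other gene of the table overlaps any of the 10, and all of their exon reads matched a single place, so close relatives did not share reads. Among the 6 tested genes WNT5A differed from the others in its introns: 1943 of its reads matched introns and 2026 matched exons, an intron share of 49.0%. The intron share was 10.9% for AXIN2, 7.90% for RSPO1, 3.25% for DKK3, 0.863% for SFRP5 and 0.754% for SFRP2, and its median over all tested genes was 9.76%. Of all tested genes, 6.01% had a higher share than WNT5A. Its share was similar in every library, from 43.7% in V15 to 52.8% in V12.

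The first question is whether the genes changed with the embryo regime. No gene of the table passed the edgeR quasi-likelihood test for HIGHGLUC against control, for LOWAA against control, for HIGHGLUC against LOWAA or over the 3 regimes together (0% of 11839 genes in each). Accordingly, 0 of the 6 tested genes passed. At an unadjusted p under 0.05 there were 353, 474, 376 and 350 genes in these tests. DESeq2 called 0, 4, 3 and 4 genes and limma-voom 0 in each, and none of these was among the 6. The regime comparisons with control share the same 3 control libraries. All these fits held no term for the run, so differences between runs counted as error. With the run as a replicate block some genes of the table passed, as given at the end, but none of the 6 with total exon reads.

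SFRP5, a secreted inhibitor that binds Wnt ligands, was the gene of the 6 tested whose library values did not overlap between regimes. It had 25.9, 26.6 and 25.8 CPM in HIGHGLUC V6, V10 and V14, 38.6, 33.8 and 28.4 CPM in LOWAA V8, V12 and V15, and 22.5, 23.1 and 24.2 CPM in control V5, V9 and V13. Every LOWAA library was above every HIGHGLUC library, and every HIGHGLUC library above every control library. The share of tested genes with this full order was not counted, nor was the share with all LOWAA above all HIGHGLUC libraries. All 3 LOWAA libraries were above all 3 control libraries in 4.69% of tested genes and below them in 5.01%; SFRP5 was the 1 gene of the 6 above, and 0 were below. For HIGHGLUC the shares were 3.78% above and 3.57% below, with SFRP5 again the 1 gene above and 0 below.

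For LOWAA against control the SFRP5 means were 33.6 ± 5.10 and 23.3 ± 0.84 CPM (SD, n = 3 each), a log2 fold change of 0.52 ± 0.12 (SE) with a 95% interval of 0.23 to 0.82. The edgeR adjusted p was 1.00 (unadjusted 0.000944). Within runs 1, 2 and 3 the differences on the log2 scale were 0.77, 0.54 and 0.23, higher in 3 of 3. The share of all tested genes with the same sign in 3 of 3 runs was not counted, here or for the genes below. For HIGHGLUC against control the means were 26.1 ± 0.44 and 23.3 ± 0.84 CPM, a log2 fold change of 0.16 ± 0.12 (interval -0.14 to 0.46, edgeR adjusted p = 1.00). For HIGHGLUC against LOWAA the log2 fold change was -0.36 ± 0.12 (interval -0.65 to -0.07, edgeR adjusted p = 1.00). An exact two-sided permutation test of each SFRP5 comparison gave p = 0.10, and groups of 3 cannot reach a lower one. With unique exon reads and the library-number run as a replicate block, SFRP5 passed for LOWAA against control (log2 fold change 0.50, edgeR adjusted p = 0.0406), whereas with total exon reads and that block it did not (0.51, edgeR adjusted p = 0.113). With each library left out in turn its edgeR adjusted p was 0.743 to 1.00. The authors' deposited table gives SFRP5 a weighted proportions fold change of 1.44 for LOWAA against control with an FDR-corrected p of 0.0843, and 1.12 for HIGHGLUC against control with an FDR-corrected p of 1.00.

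The abundant antagonist SFRP2 did not follow SFRP5. It had 2492, 1782 and 1954 CPM in HIGHGLUC V6, V10 and V14, 2641, 1897 and 2015 CPM in LOWAA V8, V12 and V15, and 2758, 1935 and 1978 CPM in control V5, V9 and V13. The first library of each regime was the highest and the regimes overlapped. The log2 fold change was -0.10 ± 0.18 for HIGHGLUC against control (interval -0.55 to 0.35) and -0.03 ± 0.18 for LOWAA against control (interval -0.47 to 0.42), neither of which passed in edgeR (adjusted p = 1.00). Within runs 1, 2 and 3 the HIGHGLUC library differed from the control library by -0.15, -0.12 and -0.02 on the log2 scale, lower in 3 of 3, and the LOWAA library by -0.06, -0.03 and 0.03. The intervals above come from a fit without the run, and SFRP2 differed between runs (below). With the run as a replicate block the values were -0.09 ± 0.06 for HIGHGLUC and -0.02 ± 0.06 for LOWAA (SE). Neither passed (edgeR adjusted p = 0.808 and 0.971).

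DKK3 had 826, 494 and 583 CPM with HIGHGLUC, 690.5, 443 and 565 CPM with LOWAA, and 694, 439.6 and 469 CPM with control embryos, in the same order of libraries. The ranges of the regimes overlapped. Its log2 fold change was 0.25 ± 0.26 for HIGHGLUC against control, with differences of 0.25, 0.17 and 0.32 within runs 1, 2 and 3, higher in 3 of 3. For LOWAA against control it was 0.09 ± 0.26, with -0.01, 0.01 and 0.27 within runs. Neither passed in edgeR (adjusted p = 1.00). In this fit without the run, the HIGHGLUC value moved when single libraries were left out. It was 0.01 without HIGHGLUC V6, 0.13 without control V9 and 0.17 without control V13. Without HIGHGLUC V10 it was 0.40, and without control V5 it was 0.48. Each such fit leaves a run without one regime, and DKK3 differed between runs (below), so these values mix regime and run. With the run as a term the HIGHGLUC value had a smaller error (0.24 ± 0.07, edgeR adjusted p = 0.372).

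RSPO1, the R-spondin ligand with a testable level in these cultures, had 65.6, 22.2 and 40.1 CPM with HIGHGLUC, 56.7, 28.5 and 40.1 CPM with LOWAA, and 53.9, 23.6 and 45.8 CPM with control embryos. The 3 regimes covered nearly the same range. Its log2 fold changes of 0.09 ± 0.50 (HIGHGLUC against control, interval -1.12 to 1.31) and 0.06 ± 0.50 (LOWAA against control, interval -1.15 to 1.28) did not pass in edgeR (adjusted p = 1.00). Within runs 1, 2 and 3 the differences were 0.28, -0.09 and -0.19 for HIGHGLUC and 0.07, 0.27 and -0.19 for LOWAA. These intervals come from a fit without the run. With the run as a replicate block the values were 0.0057 ± 0.11 for HIGHGLUC and 0.03 ± 0.11 for LOWAA (SE), and neither passed (edgeR adjusted p = 0.998 and 0.984).

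AXIN2, a scaffold of the beta-catenin destruction complex and itself a direct beta-catenin target, had 63.2, 73.6 and 79.7 CPM with HIGHGLUC, 54.3, 76.8 and 69.3 CPM with LOWAA, and 65.2, 95.6 and 75.9 CPM with control embryos. Within runs the LOWAA library was below the control library by 0.26, 0.31 and 0.13 on the log2 scale, lower in 3 of 3 (share over all tested genes not counted). The fitted log2 fold change of -0.26 ± 0.16 (interval -0.65 to 0.13) did not pass in edgeR (adjusted p = 1.00), nor did -0.14 ± 0.16 for HIGHGLUC against control, whose differences within runs were -0.04, -0.38 and 0.07. In this fit without the run, the LOWAA value was -0.09 without control V9, -0.13 without LOWAA V8 and -0.37 without LOWAA V12. AXIN2 differed between runs (below), so these values mix regime and run. With the run as a replicate block the LOWAA value was -0.24 ± 0.09 (SE) and did not pass (edgeR adjusted p = 0.422).

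WNT5A, a ligand that mostly signals without beta-catenin, had 19.3, 27.3 and 26.6 CPM with HIGHGLUC, 19.4, 29.8 and 32.1 CPM with LOWAA, and 23.2, 31.8 and 20.3 CPM with control embryos. Its differences from control changed sign between runs: for LOWAA they were -0.26, -0.09 and 0.65 in runs 1, 2 and 3, and for HIGHGLUC -0.26, -0.22 and 0.38. The log2 fold changes of 0.10 ± 0.23 (LOWAA) and -0.06 ± 0.23 (HIGHGLUC) did not pass in edgeR (adjusted p = 1.00). With the run as a replicate block they were 0.13 ± 0.15 and -0.02 ± 0.15 (SE), and neither passed (edgeR adjusted p = 0.884 and 0.996).

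**Figure D2:**
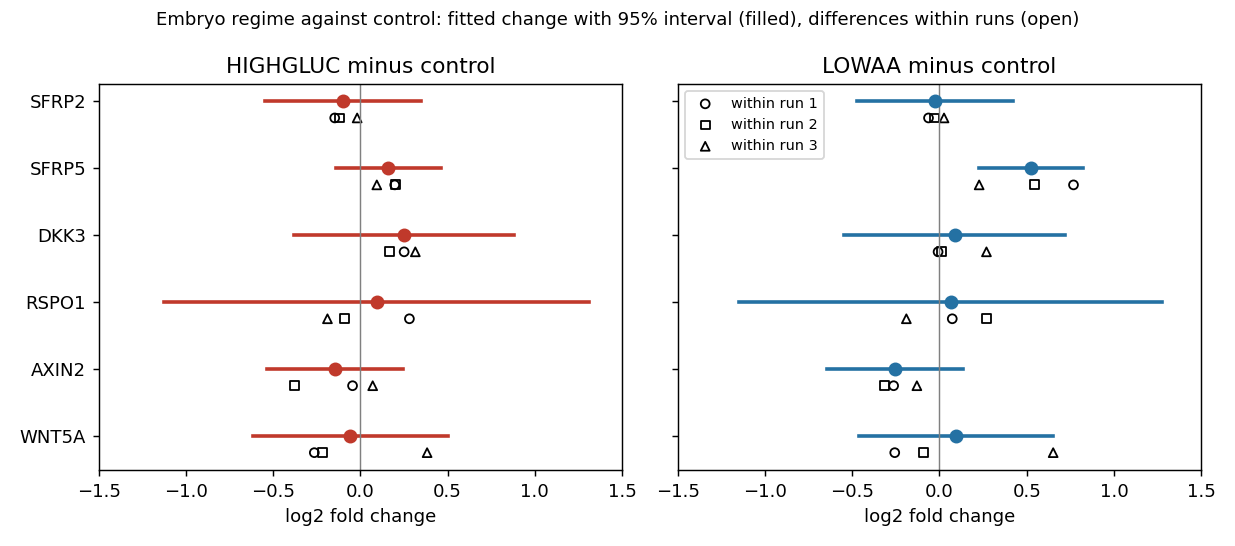
Fitted log2 fold change of the 6 tested genes for HIGHGLUC minus control (left) and LOWAA minus control (right), as filled points with 95% intervals, and the difference within each library-number run as open symbols. The fit holds no run term, so run differences count as error. In it, the SFRP5 interval for LOWAA, 0.23 to 0.82, is the only one that leaves out 0, and RSPO1 has the widest intervals. With the run as a replicate block (not drawn), DKK3 for HIGHGLUC had 0.24 ± 0.07 (SE). AXIN2 for LOWAA had -0.24 ± 0.09, and the RSPO1 error was 0.11 for either regime.

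As a group the 6 genes showed no common direction. Of them 3 were higher for HIGHGLUC against control (median log2 fold change 0.02) and 4 were higher for LOWAA against control (median 0.08), beside medians over all 11839 genes of -7.47e-05 and 0.00286. The filter on low counts removed the other 4 genes, so that these counts do not cover all 10.

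The second question is how the genes varied between the library-number runs. Here the differences were large: RSPO1, DKK3 and SFRP2 were highest in run 1, and AXIN2 was lowest there. RSPO1 averaged 58.7 ± 6.09 CPM in run 1, 24.8 ± 3.31 in run 2 and 42.0 ± 3.26 in run 3 (SD, n = 3 each), so that each run was separate from the others. DKK3 averaged 737 ± 77.4, 459 ± 30.4 and 539 ± 61.6 CPM, and SFRP2 averaged 2630.5 ± 133 CPM in run 1, 1871 ± 79.5 in run 2 and 1982 ± 30.5 in run 3. AXIN2 averaged 60.9 ± 5.798 CPM in run 1, 82.0 ± 11.9 in run 2 and 75.0 ± 5.25 in run 3.

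In a fit with regime and run, edgeR called 1202 of 11839 genes between runs (10.2%), and 4 of the 6 genes were among them. RSPO1 had a log2 difference of -1.26 ± 0.11 (SE) between run 2 and run 1 (adjusted p = 3.02e-06 over the 3 runs) and was 2.39-fold higher in run 1. DKK3 differed by -0.68 ± 0.07 (adjusted p = 1.35e-05) and SFRP2 by -0.49 ± 0.06 (adjusted p = 5.31e-05). AXIN2 differed in the opposite direction, by 0.43 ± 0.09 (adjusted p = 0.00939). Ordered by p among all tested genes, RSPO1 was at place 15, DKK3 at 24 and SFRP2 at 50.

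All 3 libraries of run 1 lay above the other 6 for RSPO1, DKK3 and SFRP2, a pattern seen in 6.06% of tested genes, and below the other 6 for AXIN2, seen in 5.13%. WNT5A averaged 20.7 ± 2.23 CPM in run 1, 29.6 ± 2.26 in run 2 and 26.3 ± 5.87 in run 3, and its run difference of 0.56 ± 0.15 did not pass (edgeR adjusted p = 0.0537). WNT5A passed with unique exon reads (0.0176), exon read totals as the scale (0.0319), no filter (0.0342) or limma-voom (0.0446), and not with DESeq2 (0.102). SFRP5 averaged 29.0 ± 8.45, 27.9 ± 5.45 and 26.1 ± 2.10 CPM and did not pass either (edgeR adjusted p = 0.722). The run accounted for 95.5% of the sum of squares of log2 CPM over the 9 libraries for SFRP2, 94.5% for RSPO1, 85.8% for DKK3, 66.8% for AXIN2 and 59.1% for WNT5A, against a median of 36.1% over all tested genes. For SFRP5 it was 3.91%, and the regime accounted for 79.9%, beside a median of 18.6%.

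**Figure D3:**
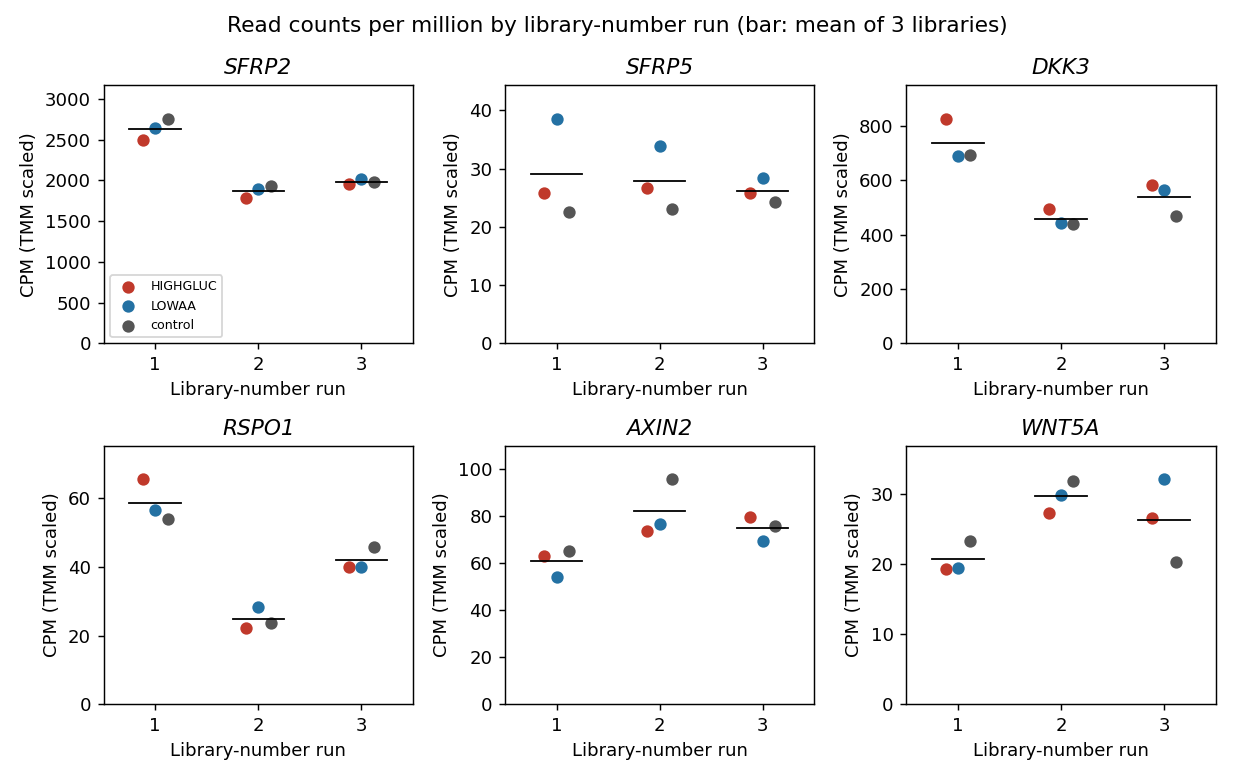
CPM of the 6 tested genes in runs 1, 2 and 3; each point is a library, coloured by embryo regime, and the bar is the mean of the 3 libraries of a run. RSPO1, DKK3 and SFRP2 are highest and AXIN2 lowest in run 1 in all regimes, and the SFRP5 libraries are ordered by regime within each run.

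**Figure D4:**
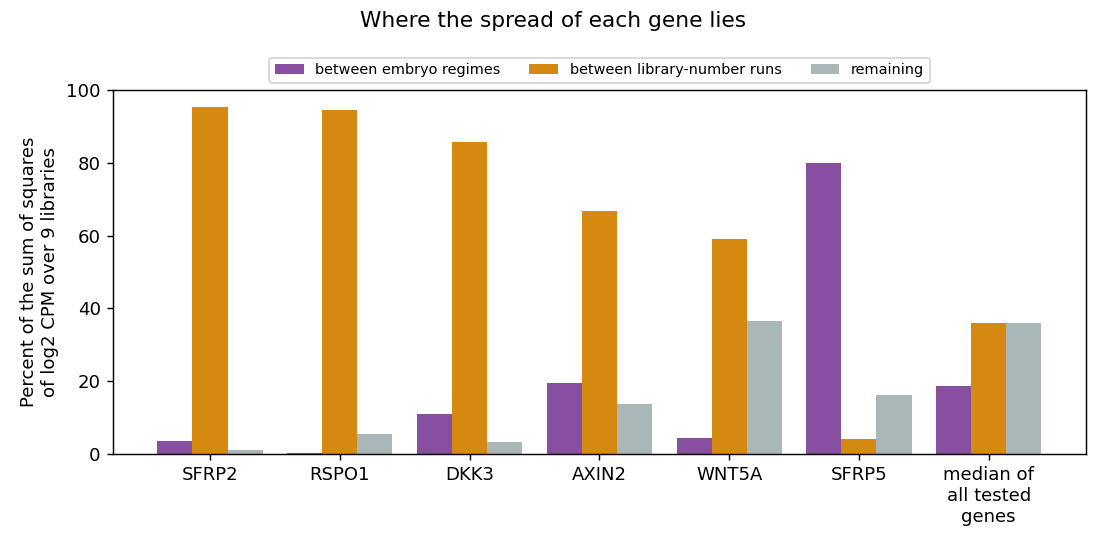
Percent of the sum of squares of log2 CPM over 9 libraries that lies between embryo regimes, between library-number runs and in the remainder, for the 6 tested genes and as the median over all tested genes. SFRP2 has 95.5% and RSPO1 94.5% between runs, while SFRP5 has 79.9% between regimes.

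The run calls depended on the libraries and the scaling to different degrees. Leaving out each library in turn, RSPO1, DKK3 and SFRP2 kept their calls in edgeR, with adjusted p for DKK3 of 1.63e-05 to 0.000278. AXIN2 lost its call without control V5 (adjusted p = 0.0538) or LOWAA V8 (0.0907), and WNT5A passed without control V5 (0.0350), control V13 (0.00754) or LOWAA V15 (0.0403). On the authors' quantile normalised values, limma called RSPO1 alone, with adjusted p of 0.0900 for SFRP2, 0.0623 for DKK3 and 0.148 for AXIN2, and 77 genes in all. Of the 1202 calls, 46.5% were higher in run 2 than in run 1, and with exon read totals alone as the scale this share was 60.7% of 1286.

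The following features of the libraries were compared between runs. Reads in introns made up 7.05% to 8.07% of gene reads in run 1, 8.91% to 13.7% in run 2 and 8.98% to 10.3% in run 3. The epithelial marker sum was 8507 to 9077 CPM in run 1, 7763 to 8769 in run 2 and 7837 to 8175 in run 3, and the stromal fibroblast sum was 10774 to 11323, 11881 to 12779 and 11474 to 13148 CPM. Of 6 tested epithelial markers, 2 (KRT18 and CDH1) passed between runs in edgeR, both lower in run 2 than in run 1, and of 8 stromal markers 3 did: COL3A1 was higher in run 2 than in run 1, while PDGFRA and THY1 were lower. Of the other markers, 1 of 2 leukocyte markers (CD14, lower in run 2), 0 of 4 smooth muscle markers and 0 of 1 endothelial marker passed, beside 10.2% of all tested genes. With limma on the quantile normalised values KRT18, CDH1, COL3A1, PDGFRA and THY1 did not pass. THY1 averaged 10.7, 2.64 and 7.10 CPM in runs 1, 2 and 3 (edgeR adjusted p = 7.44e-05). The epithelial sums of runs 1 and 2 overlapped, as did the endothelial and smooth muscle sums of all runs. The endothelial sum was 1.36 to 2.82, 0.787 to 1.76 and 0.871 to 1.88 CPM, the leukocyte sum 16.1 to 17.6, 11.1 to 16.0 and 11.4 to 12.9 CPM, and the smooth muscle sum 306 to 473, 372 to 503 and 425 to 493 CPM. The part of these features in the differences of RSPO1, DKK3, SFRP2 and AXIN2 was not tested.

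The surrounding Wnt machinery was taken from lists of 85 genes, of which 77 were found by symbol and 52 were tested. None passed in edgeR between regimes (0 higher and 0 lower in each comparison, adjusted p), with 31 of 52 higher for HIGHGLUC against control (median log2 fold change 0.05) and 27 of 52 for LOWAA against control (median 0.01). Between runs 9 of 52 passed, 1 higher and 8 lower in run 2 than in run 1, beside the 10.2% of all genes. Of the 77 genes, 13 had 0 reads.

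Among ligands, WNT2B with 104.7 RPKM and WNT2 with 52.0 RPKM were above WNT5A, and 7 of 18 other Wnt ligands had 0 reads. WNT2, a ligand of the beta-catenin branch, averaged 154 ± 6.24 CPM in run 1, 109 ± 3.08 in run 2 and 125 ± 6.14 in run 3 (SD, n = 3 each). This order is the one seen for RSPO1, DKK3 and SFRP2, and WNT2 passed between runs (log2 difference of run 2 from run 1 of -0.51, edgeR adjusted p = 0.000420). WNT4 had 13.4 ± 4.94 CPM with HIGHGLUC, 9.58 ± 3.05 with LOWAA and 9.58 ± 1.18 with control embryos.

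Among receptors, RYK had 65.9 RPKM, FZD7 49.4 and FZD6 46.1, and the LRP co-receptors LRP6 and LRP5 had 13.6 and 11.6 RPKM. The WNT5A receptor ROR2 averaged 6.42 ± 2.35 CPM in run 1, 1.97 ± 0.43 in run 2 and 5.56 ± 0.11 in run 3 (edgeR adjusted p = 0.000852). ROR1 averaged 3.92 ± 1.18, 1.49 ± 0.31 and 1.90 ± 0.71 CPM (edgeR adjusted p = 0.0219). ROR2 was lowest in run 2 and nearly as high in run 3 as in run 1. FZD6 was lower in run 2 than in run 1 by 0.24 on the log2 scale and FZD1 was higher by 0.25 (edgeR adjusted p = 0.00878 and 0.0342). FZD2 had 10.1 ± 1.45 CPM with HIGHGLUC, 13.02 ± 2.18 with LOWAA and 9.52 ± 2.09 with control embryos, a log2 fold change of 0.50 ± 0.19 for LOWAA against control that did not pass (edgeR adjusted p = 1.00).

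Of the R-spondin receptors, LGR4 had 7.31 RPKM, LGR5 had 0.382 RPKM and LGR6 had 0 reads. The ligases ZNRF3 and RNF43 had 1.87 and 0.480 RPKM. ZNRF3 had 4.14 ± 0.54 CPM with HIGHGLUC, 6.15 ± 0.56 with LOWAA and 4.50 ± 1.04 with control embryos (SD, n = 3 each), a log2 fold change of 0.51 ± 0.22 for LOWAA against control that did not pass (edgeR adjusted p = 1.00). KREMEN1, a DKK receptor, had 80.4 RPKM, and the DKK relatives DKKL1 and DKK2 had 14.6 and 1.79 RPKM. The Wnt-binding inhibitors FRZB and WIF1 had 2 reads and 1 read in all, and DKK4, RSPO2 and RSPO4 had 0 reads.

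Of 8 other tested beta-catenin targets, 3 passed between runs, each lower in run 2 than in run 1, whereas AXIN2 was higher; the share called over all tested genes was 10.2%. CCND1, a cyclin of the G1 phase, averaged 146 ± 5.93 CPM in run 1, 111 ± 11.1 in run 2 and 119 ± 5.17 in run 3 (edgeR adjusted p = 0.00452), the reverse of the order of AXIN2. NKD1, another feedback inhibitor, averaged 34.2 ± 8.06, 24.98 ± 3.66 and 30.3 ± 2.32 CPM (edgeR adjusted p = 0.0430), and JUN was also lower in run 2 than in run 1, by 0.36 on the log2 scale (edgeR adjusted p = 0.00800). The co-activator gene BCL9 was lower in run 2 than in run 1 by 0.23 (edgeR adjusted p = 0.0411). Without single libraries WNT2 and ROR2 kept their run calls, while the other 7 each lost theirs in at least 1 case: CCND1 without LOWAA V8, JUN without LOWAA V12, FZD6 without HIGHGLUC V6, ROR1 without control V5 or LOWAA V8, and FZD1, BCL9 and NKD1 in 6 or more cases each. With limma on the quantile normalised values none of the 9 passed, with adjusted p of 0.0911 for WNT2 and 0.0664 for ROR2.

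MYC, a target of many pathways, had 165 ± 26.5 CPM with HIGHGLUC, 117 ± 5.47 with LOWAA and 157 ± 13.4 with control embryos (SD, n = 3 each). Its log2 fold change for HIGHGLUC against LOWAA was 0.49 ± 0.11 and did not pass without the run in the fit (edgeR adjusted p = 1.00). With the run as a term it passed (0.49, edgeR adjusted p = 0.0319). Of the other genes with the smallest p in their list, BCL9L had 106 ± 2.44 CPM with HIGHGLUC, 105 ± 5.46 with LOWAA and 92.0 ± 7.52 with control embryos. WNT11, PORCN, WLS, FZD9, RNF43, DKKL1, TPBG, AXIN1, CSNK1D and PYGO1 did not pass in any regime comparison, and their unadjusted p was at least 0.0564.

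The genes whose levels most resembled those of the 6 were sought over the 9 libraries by Pearson's r of log2 CPM, among genes with a symbol and at least 2 CPM. The libraries share their runs, so these r values describe common order rather than independent agreement. SFRP2 was nearest to BTBD11 and NOV (r of 0.98 and 0.97) and RSPO1 to SLC2A1 and PTTG1IP (0.97 and 0.97). DKK3 was nearest to ALAD and MRPL35 (0.98 and 0.97), AXIN2 to ATF7IP and PSMF1 (0.95 and 0.94), and WNT5A to ABHD14B and LRRC8D (0.95 and 0.94). SFRP5 was nearest to ORMDL3 and CBX7 (0.94 and 0.92).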

How the data were processed

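Per the labels, BEEC total RNA gave HiSeq2000 reads of 50 bp from one end, although the file headers call the libraries paired. Per the submitters' processing notes, Bowtie2, HTSeq 0.5.4p2 and the build UMD3.1 were used. The role of each and the annotation are not given in the sources used here. Exon, intron and exon-exon read counts were deposited by the authors as raw counts per gene. RPKM values were deposited by the authors per kilobase of exon, scaled to exon and intron reads of the library. A further set of signal columns deposited by the authors holds the same sorted values in every library, as quantile normalisation gives. A signed fold change score and p-values of Baggerley's test were deposited by the authors. Of the library columns, 72 were not used.

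Total exon read counts were filtered with filterByExpr (minimum count 10; 11839 of 24596 genes kept), given TMM factors and fitted by robust quasi-likelihood in edgeR 4.0.16 (R 4.3.3) on all 9 libraries, with regime as the only term (6 residual degrees of freedom) or with regime and library-number run for the run test (4 degrees of freedom). P-values were Benjamini-Hochberg adjusted over all tested genes at 0.05. The standard error is the log2 fold change over the root of F, and 95% intervals use 6 degrees of freedom. Differences within runs use log2 CPM with a prior count of 2. Alternatives used DESeq2 1.42.0, limma 3.58.1 (voom, or log2 of quantile normalised values plus 1), other scalings, unique exon reads and each library left out. Scripts were tested on simulated data. Chi-square per degree of freedom was 8.37 to 27.0 for library pairs of a regime, so no such pair differed by counting error alone. Separate libraries from the same RNA or culture cannot be told apart in this way. Pairs across regimes were not compared. The preparation kit does not mark strand, so reads of antisense transcripts cannot be told apart. No sequence is printed.

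The members, lists and tests were chosen with earlier results of these data known. Named genes are the 10 members, in each other Wnt list those that passed and the 2 with the smallest p over the regimes, and the 2 genes nearest to each member with at least 2 CPM. Other Wnt list genes, given with their level only (such as WNT2B, RYK, FZD7, LRP5, LRP6, LGR4, LGR5, LGR6, KREMEN1, DKK2, DKK4, FRZB, WIF1, RSPO2 and RSPO4), were chosen for their role after their values were seen.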

Additional observations from a re-analysis of the deposited data

How the results depend on the processing

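Counts of genes called between regimes were 0 under each alternative scaling, filter, limma-voom, quantile normalised values and unique exon reads. DESeq2 called 4 genes for LOWAA against control and over the regimes (ERRFI1, PARP14, TXNIP and ZFP36, named after their values were seen) and 3 for HIGHGLUC against LOWAA. With the library-number run as a replicate block edgeR called 3 (HIGHGLUC against control), 19 (LOWAA against control), 17 (HIGHGLUC against LOWAA) and 24 genes (over the regimes), and with unique exon reads and that block 8, 57, 36 and 60, of which 1, SFRP5 for LOWAA against control, was among the 10 genes. The block was not the main fit because only 7 of 9 pairs from a run deviated together, with a correlation above 0.1 (lowest 0.0221). With unique exon reads 9 of 9 did (lowest 0.197). Of the pairs from different runs, 6 of 18 were above 0.1 with total exon reads (-0.70 to 0.42). With unique exon reads 0 of 18 were (-0.36 to 0.03), so that by this measure the libraries of a run deviated together. The main fit thus keeps run differences in its error. Its common coefficient of variation between libraries was 0.171, against 0.107 with the block. Leaving out single libraries, the count for LOWAA against control was 0 to 1 (TXNIP, without HIGHGLUC V6), and 790 to 1313 genes and 3 to 5 of the 6 were called between runs. On quantile normalised values, chosen after seeing the data, 77 genes and 1 of the 6 were called between runs. The cause was not tested.

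Values near 0 changed sign. RSPO1 for HIGHGLUC against LOWAA (0.03) was -0.0497 with limma-voom, -0.0224 with the replicate block, -0.00978 with unique exon reads and the block and -0.0587 on quantile normalised values, where RSPO1 for HIGHGLUC against control was -0.0111. Without single libraries, log2 fold changes for HIGHGLUC against control ranged from -0.25 to 0.0855 (SFRP2), -0.37 to 0.40 (RSPO1), -0.25 to 0.0223 (AXIN2), -0.21 to 0.17 (WNT5A) and -0.0043 to 0.10 (CSNK1D). For LOWAA against control they ranged from -0.185 to 0.16 (SFRP2), -0.0813 to 0.32 (DKK3), -0.24 to 0.28 (RSPO1) and -0.0501 to 0.33 (WNT5A). For HIGHGLUC against LOWAA they ranged from -0.23 to 0.0864 (SFRP2), -0.0724 to 0.33 (DKK3), -0.43 to 0.34 (RSPO1) and -0.0187 to 0.22 (AXIN2), and SFRP5 between runs 2 and 1 from -0.13 to 0.0782. Without single libraries, SFRP5 (0.41 to 0.63) and AXIN2 (-0.37 to -0.0892) for LOWAA against control and DKK3 for HIGHGLUC against control (0.0141 to 0.48) kept their sign. The regime fits without single libraries held no run term, so their values mix regime and run. Depth limits SFRP1, SFRP4, DKK1 and RSPO3, which had at most 12 reads in a library.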
